A study of Mus musculus with 6 samples.

Results

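The genes described here are 10 members of the interleukin-1 (IL-1) family and the inflammasome, out of 55487 genes in the deposited count table. They are the cytokine genes Il1a, Il1b and Il18, the inhibitor genes Il1rn and Il18bp, the receptor subunit gene Il1rap, the inflammasome genes Nlrp3, Pycard and Casp1, and the pore-forming Gsdmd. Members were chosen by gene symbol, after each Ensembl ID had been matched without its version to GENCODE M21, and each of the 10 symbols had 1 row. The data come from RAW264.7, a mouse macrophage cell line that can be driven towards osteoclasts. The titles of 3 samples read SMART-Cas9 with the genotype RhoA knockout, and the other 3 read Control with the genotype wt. All 6 samples carried the treatment RANKL/M-CSF, the cytokine pair that drives osteoclast formation. The design text describes the targeting as macrophage-specific and the control as an untreated macrophage line, so Cas9 treatment and the edit cannot be told apart. The study asked what loss of the small GTPase RhoA in macrophages does in bone destruction in rheumatoid arthritis.

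IL-1 alpha, IL-1 beta and IL-18 are inflammatory cytokines made as precursors. Macrophages first raise transcription of Il1b after a danger or microbial signal, and a second signal then assembles the inflammasome, in which a sensor such as NLRP3 recruits the adaptor ASC (encoded by Pycard) and the protease caspase-1. Caspase-1 cleaves the precursors of IL-1 beta and IL-18 and also gasdermin D, whose fragment forms pores through which the cytokines leave the cell. The receptor antagonist encoded by Il1rn blocks the IL-1 receptor, and IL-18 binding protein captures IL-18. IL-1 is known as a stimulus of osteoclasts and of joint destruction.

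The samples titled SMART-Cas9, of genotype RhoA knockout, are called the libraries labelled knockout, and Rhoa itself was higher there. It measured 34.2, 29.9 and 31.5 CPM (counts scaled to a common library size with TMM factors) there, against 21.4, 25.8 and 24.4 CPM in the control libraries (edgeR adjusted p = 0.0136, higher). This call was lost without control replicate 1 (0.0645) and without replicate 1 of the libraries labelled knockout (0.0741). It held under 15 of 17 alternatives, and over all 17 the log2 fold change was 0.34 to 0.75. Counts per gene hold no sequence, so whether Rhoa was edited was not tested. The groups are named by their labels, and every direction given compares the knockout label with the control label. Library totals ran from 60198645 to 81830819 counts. The 10 genes with the most counts held 62 to 63.2% of counts in control and 44.1 to 47.8% in the libraries labelled knockout. Small changes can depend on the scaling, as given for Gsdmd below. In each group replicate 3 stood further from replicates 1 and 2 than these did from each other. All 8 macrophage markers examined had counts, with 4 of the 7 tested lower and 3 higher, where 43.2% of all genes tested were called. The sum of the 8 was led by Lyz2 and hides these opposite calls. It was 81100 to 114000 CPM in the libraries labelled knockout against 18200 to 20000 CPM in the control libraries. Of the 8 osteoclast markers 5 were tested and all 5 were called, 3 lower and 2 higher. Their sum, which was led by Ctsk and hides these opposite calls, was 23.5 to 23.8 CPM against 21.7 to 25.9 CPM in control, with Calcr and Oscar at 0. Of 6 neutrophil markers only S100a8 had counts, at most 0.195 CPM against 0.246 CPM in control, and the B cell and fibroblast markers were all at 0. Of 4 epithelial markers 3 had counts, in control only, where their sum was 0 to 1.44 CPM, and 0 were tested. The dendritic cell sum was 0.145 to 0.609 CPM against 0.0778 to 0.769 CPM in control. The T cell and mast cell sums reached 0.0487 and 0.0789 CPM, against 0 and 0.0259 CPM in control. The labels do not say whether the 3 samples of a group were separate cultures, so p-values measure only the spread among these samples, possibly a technical one. In bulk RNA, fewer cells that express a gene and less RNA per cell cannot be told apart.

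Of the 10 members, 7 were lower in the libraries labelled knockout, in which Rhoa was not lower, 0 were higher, 2 did not pass and Pycard had too few counts to be tested. At an unadjusted p of 0.05 0 were higher in edgeR, and DESeq2 and limma-voom also called 0 higher. Il1a, Il1b, Il1rn and Il18bp fell by far the most, Il18, Casp1 and Gsdmd fell by 0.85, 0.63 and 0.46 on the log2 scale, and Nlrp3 and Il1rap did not pass (edgeR quasi-likelihood test, Benjamini-Hochberg adjusted p under 0.05 over 12930 genes). Over all genes tested, 43.2% were called, 22.3% lower and 21.0% higher, so being called is common in this comparison. The 3 libraries of a group lay entirely on 1 side of the other 3 for 8 of the 9 tested members and for 55.8% of all genes tested. A called log2 fold change of -4 or less, a limit set after the values were seen, was held by 4 members and by 1.19% of all genes tested. Il1a, Il1b and Il18bp, which are 3 of the 4 members at -4 or less, passed the filter on low counts through the control libraries alone. They had to differ, so the counts of members lower, on 1 side and at -4 or less are descriptions. Setting them beside the shares of all genes is not a test.

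**Figure D1:**
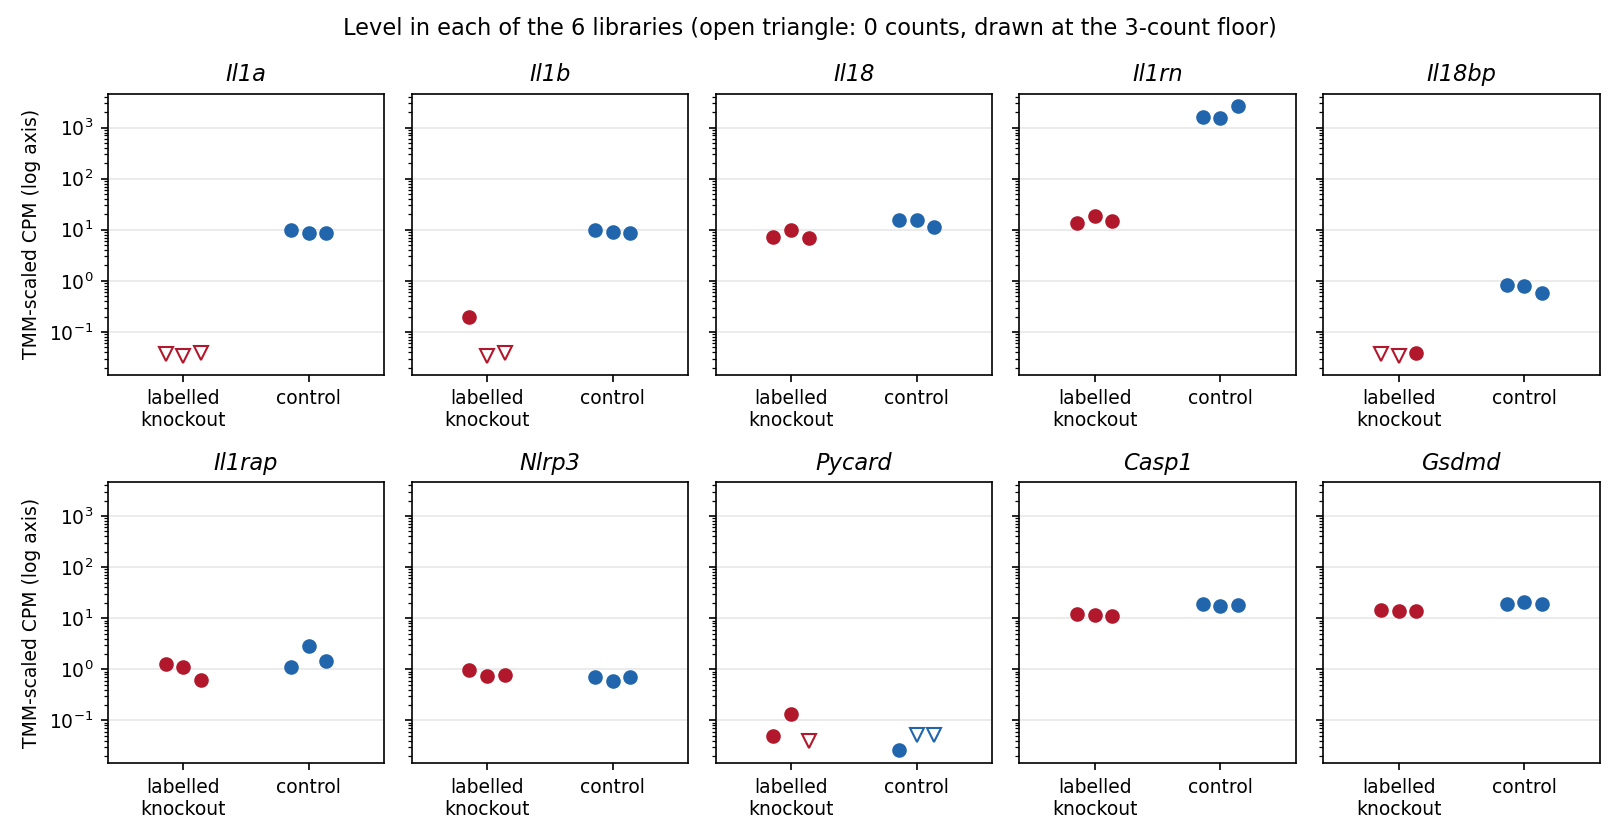
TMM-scaled CPM of each of the 10 members (log axis) in the 3 libraries labelled knockout (red) and the 3 control libraries (blue), 1 point per library, with libraries at 0 counts drawn as open triangles at the floor of 3 counts. Il1a, Il1b, Il1rn and Il18bp separate widely, while Il18, Casp1 and Gsdmd lie close together, as with Casp1 at 11.9, 11.6 and 11.3 CPM against 18.9, 17.0 and 17.9 CPM in control.

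Il1a, which encodes the IL-1 alpha released mainly by damaged cells, had 0 counts in each of the 3 libraries labelled knockout, against 762, 508 and 508 counts in the control libraries. All 3 control libraries were alike, at 9.88, 8.68 and 8.62 CPM, and no library of the other group held a read. Set against 3 counts over the whole group, Il1a was at least 754-fold lower (edgeR adjusted p = 5.62e-08). This p-value is a description, since Il1a passed the filter on low counts through control alone.

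Il1b, the gene of the main secreted IL-1, held 16, 0 and 0 counts in the libraries labelled knockout, against 755, 521 and 513 counts in the control libraries. The 16 counts, or 0.195 CPM, came from replicate 1 alone, and the control libraries lay at 9.78, 8.90 and 8.70 CPM. The log2 fold change was -7.10 ± 0.86 (SE, edgeR adjusted p = 0.000411), and without replicate 1 of the libraries labelled knockout it was -12.37, a value fitted against a group at 0. Il1b passed the filter on low counts through control alone, so its p-value is a description. As a ratio of summed counts over scaled totals, control stood 142 times above the libraries labelled knockout, with a 95% counting interval of 87.3 to 249. This interval covers counting error only.

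Il1a and Il1b are neighbours on the minus strand of chromosome 2 (GRCm38), Il1a at 129299610 to 129309972 and Il1b at 129364570 to 129371139, with 54597 bases between them. Il1rn lies on the plus strand of the same chromosome, at 24336853 to 24351494. Because these 3 genes moved together, the 250 bases before a start of each are shown here, with those of Nlrp3, which was not called, for contrast. The sequences are from RefSeq on GRCm38.p6, 5′ to 3′ on the strand of the gene, and capitals mark matches to the motifs searched.
Il1a chr2:129309973-129310222, minus strand: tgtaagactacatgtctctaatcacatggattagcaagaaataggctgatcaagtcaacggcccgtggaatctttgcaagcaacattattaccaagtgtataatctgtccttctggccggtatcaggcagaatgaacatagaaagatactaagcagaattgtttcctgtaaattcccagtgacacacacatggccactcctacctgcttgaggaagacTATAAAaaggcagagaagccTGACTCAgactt
Il1b chr2:129371140-129371389, minus strand: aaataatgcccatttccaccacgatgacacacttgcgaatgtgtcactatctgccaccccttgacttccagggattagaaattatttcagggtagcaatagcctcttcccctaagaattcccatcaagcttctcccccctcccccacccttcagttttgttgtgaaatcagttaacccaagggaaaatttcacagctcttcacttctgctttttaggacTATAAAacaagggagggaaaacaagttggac
Il1rn chr2:24336610-24336859, plus strand: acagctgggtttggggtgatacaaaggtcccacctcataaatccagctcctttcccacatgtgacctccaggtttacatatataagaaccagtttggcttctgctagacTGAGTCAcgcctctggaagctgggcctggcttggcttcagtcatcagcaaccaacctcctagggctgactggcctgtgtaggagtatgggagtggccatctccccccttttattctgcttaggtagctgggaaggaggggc
Nlrp3 chr11:59541319-59541568, plus strand: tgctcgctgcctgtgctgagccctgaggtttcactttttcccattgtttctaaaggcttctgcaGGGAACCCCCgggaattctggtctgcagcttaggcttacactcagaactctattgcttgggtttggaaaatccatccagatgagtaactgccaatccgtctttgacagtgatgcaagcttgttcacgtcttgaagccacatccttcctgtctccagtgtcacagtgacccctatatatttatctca

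Promoter windows were found for 9 of the 10 members, 12 windows in all, and 6 motifs were searched on both strands. The TATA box, searched as TATAAA, lay at bases 32 to 27 before the start of Il1a and 31 to 26 before that of Il1b. Before Il18 the letters matched on the opposite strand only, at bases 175 to 170, unlike the placement in Il1a and Il1b. An AP-1 motif, searched as TGANTCA, lay at bases 12 to 6 before the start of Il1a and at 141 to 135 before the upstream start of Il1rn. These 2 motifs were held by 12.4% and 6.75% of all 32851 windows of the same length. The kappa B consensus, held by 7.25% of windows, matched at bases 186 to 177 before the upstream start of Nlrp3 and in no other member's window. Of the rest, TTGNNNCAA (C/EBP, 5.02% of windows) matched before Il18bp, and GAGGAAGT (PU.1, 2.44%) matched before Pycard on the opposite strand. GAAANNGAA (the core of the interferon-stimulated response element, 7.13%) matched no member. The marked motifs do not overlap one another. The matches describe letters only.

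Genes near these were called in both directions. Within 250 kb of Il1a and Il1b, 8 other genes were tested, of which 2 were lower and 2 higher. Over all genes tested, 43.2% were called, 22.3% lower and 21.0% higher, so such calls are common and describe no trait of the locus. Slc20a1, a phosphate transporter, held 707, 690 and 831 counts in the libraries labelled knockout and 2390, 1908 and 1657 in control (log2 fold change -1.75, edgeR adjusted p = 2.31e-06). On the other side of the pair, Sirpa, an inhibitory receptor of macrophages, held 4766, 4906 and 3788 counts against 2583, 1711 and 1898 in control (log2 fold change 0.78, edgeR adjusted p = 0.00013). Both genes were picked out after their values were seen, and all 3 libraries labelled knockout lay on 1 side of control for each. Within 250 kb of Il1rn, 3 other genes were tested, and the 2 called were the IL-36 cytokine genes described with the other ligands. These 2 passed the filter on low counts through control alone and had to differ.

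Il1rn, the gene of the IL-1 receptor antagonist, was by far the most abundant member in control. It measured 13.5, 18.7 and 14.7 CPM in the libraries labelled knockout, against 1590, 1550 and 2610 CPM in the control libraries. Control replicate 3 was the highest of all, and the groups were far apart. In control it ranked 42nd of all genes by mean CPM, and in the libraries labelled knockout it ranked 2464th. With 1105, 1671 and 1117 counts left, this fall is well counted in both groups, at a log2 fold change of -6.94 ± 0.26 (SE, edgeR adjusted p = 6.41e-09).

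Il18bp, which encodes the secreted trap of IL-18, held 0, 0 and 3 counts in the libraries labelled knockout, against 63, 47 and 34 counts in the control libraries. It was scarce in control as well, at 0.816, 0.803 and 0.577 CPM. The ratio of control to the libraries labelled knockout was 61.0, with a 95% counting interval of 20.5 to 299. The log2 fold change was -5.69 ± 1.22 (SE, edgeR adjusted p = 0.00253), and -8.74 without replicate 3 of the libraries labelled knockout, which holds all of the 3 counts. Il18bp passed the filter on low counts through control alone, so its p-value is a description. Its exons overlap 80 bases of Numa1 on the opposite strand, and the strand setting of the counting is not given in the sources used here. Numa1 held 684, 590 and 471 counts against 642, 291 and 433 in control.

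Il18, unlike Il1a and Il1b, stayed plainly detected in both groups. Its level was 7.35, 9.68 and 6.78 CPM in the libraries labelled knockout, against 15.6, 15.7 and 11.5 CPM in the control libraries. The groups did not overlap, although replicate 2 of the libraries labelled knockout came near control replicate 3. The log2 fold change was -0.85 ± 0.19 (SE, edgeR adjusted p = 0.00276), -1.18 with an offset for exon length and -1.03 without replicate 2 of the libraries labelled knockout.

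**Figure D2:**
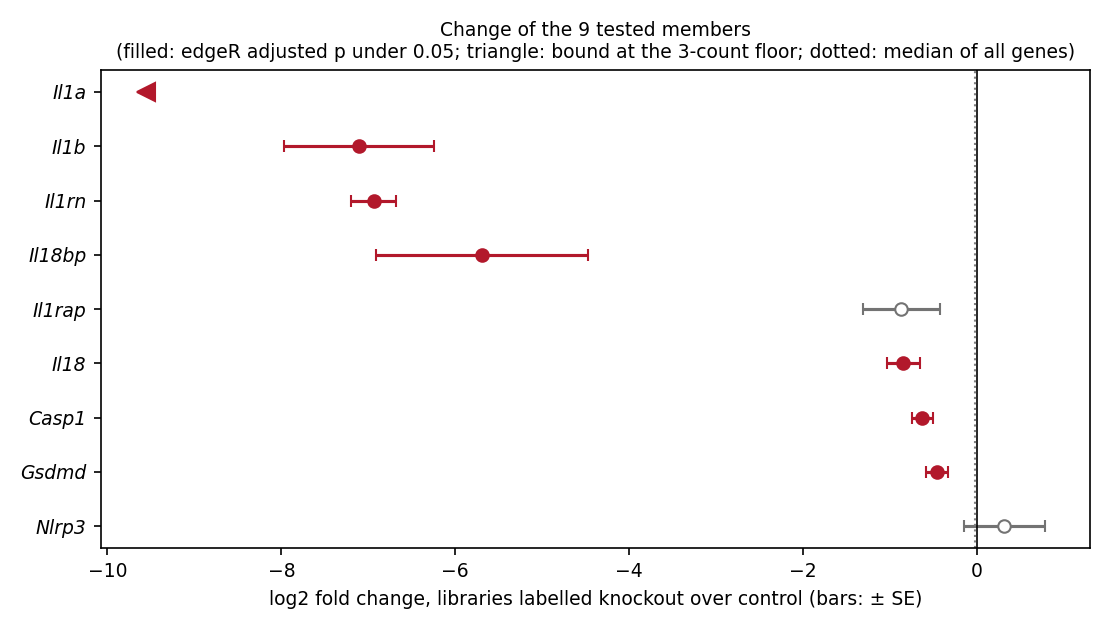
Log2 fold change of the 9 tested members, libraries labelled knockout over control, with bars of ± 1 SE, filled points for an edgeR adjusted p under 0.05, and a triangle for Il1a at its bound. Il1b at -7.10, Il1rn at -6.94 and Il18bp at -5.69 stand apart from Il18, Casp1 and Gsdmd, which lie between -0.85 and -0.46.

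The balance between cytokine and inhibitor was compared within each library, as the log2 ratio of counts with 0.5 added. This ratio does not depend on scaling between libraries where both counts are well above 0.5. Where 1 of the counts is 0, it follows the raw count of the other gene and so the depth of the library. For Il1b over Il1rn the ratio was -6.07, -11.71 and -11.13 in the libraries labelled knockout, against -7.34, -7.44 and -8.23 in the control libraries. The groups overlapped, since replicate 1 lay above control and the other two below it, and the exact two-sided permutation test over samples gave p = 0.4 (adjusted over 3 ratios, 0.4). In replicates 2 and 3 of the libraries labelled knockout Il1b had 0 counts, so -11.71 and -11.13 are set by the added 0.5. For Il1a over Il1rn the ratio was -11.11, -11.71 and -11.13 in the libraries labelled knockout, against -7.33, -7.47 and -8.24 in the control libraries (exact permutation p = 0.1, adjusted 0.15). The former are also set by the added 0.5, since Il1a had 0 counts there. With 2 counts added they were -9.11, -9.71 and -9.13. For Il18 over Il18bp the ratio was 10.24, 10.76 and 7.21 in the libraries labelled knockout, against 4.25, 4.28 and 4.29 in the control libraries (exact permutation p = 0.1, adjusted 0.15). The 10.24 and 10.76 are set by the added 0.5 and are not bounds, since Il18bp had 0 counts there, and 7.21 rests on 3 counts. With 2 counts added the values in the libraries labelled knockout were 8.24, 8.76 and 6.69. Il1a, Il1b and Il18bp passed the filter through control alone, so all 3 ratios are descriptions. A p of 0.1 is the smallest that 3 samples against 3 can give, so no ratio could pass 0.05.

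**Figure D3:**
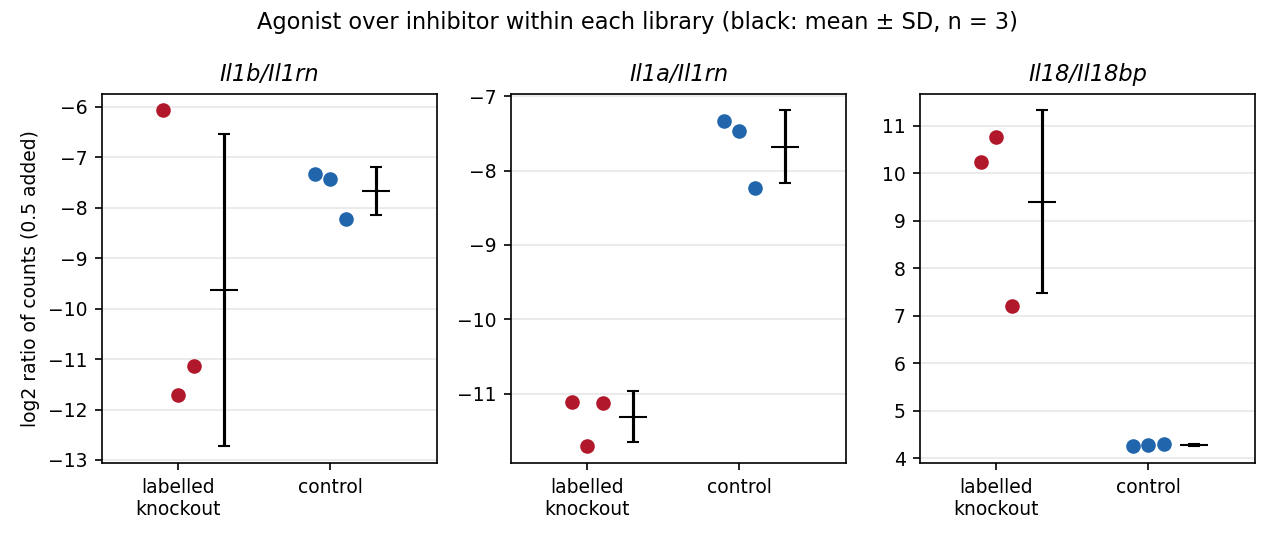
Log2 ratio of cytokine to inhibitor counts in each library, with 0.5 added to each count, for the 3 libraries labelled knockout (red) and the 3 control libraries (blue), with group means ± SD (n = 3) in black. Il18 over Il18bp lies at 7.21 or more in the libraries labelled knockout and at 4.29 or less in control, while Il1b over Il1rn overlaps. The 7.21 rests on 3 counts of Il18bp, and 10.24 and 10.76 are set by the added 0.5 at 0 counts. With 2 counts added the lowest value in the libraries labelled knockout is 6.69.

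Among the inflammasome genes, Casp1, the gene of caspase-1, had 976, 1036 and 856 counts in the libraries labelled knockout, against 1456, 995 and 1052 counts in the control libraries. The counts overlap, but once scaled the libraries labelled knockout, at 11.9, 11.6 and 11.3 CPM, all lay below control at 18.9, 17.0 and 17.9 CPM. The log2 fold change was -0.63 ± 0.12 (SE, edgeR adjusted p = 0.00145), and -0.99 with an offset for exon length.

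Gsdmd, the gene of the pore-forming gasdermin D, measured 14.6, 13.6 and 14.1 CPM in the libraries labelled knockout, against 18.8, 20.8 and 18.6 CPM in the control libraries. The groups did not overlap, and the spread within each was small. The log2 fold change was -0.46 ± 0.12 (SE, edgeR adjusted p = 0.00879). It became -0.72 with the length offset, and -0.29 (adjusted p = 0.177) when libraries were scaled by their totals alone. Under that scaling the median of all genes tested was 0.15 on the log2 scale, against -0.03 with TMM, and 59.8% of its calls were higher, against 48.5% with TMM. With totals alone Casp1 was at -0.45 (adjusted p = 0.0469) and Il18 at -0.67 (adjusted p = 0.0428).

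Nlrp3, the sensor gene, was scarce in both groups, with 80, 66 and 58 counts in the libraries labelled knockout against 54, 35 and 41 counts in the control libraries. In CPM these were 0.975, 0.738 and 0.763 against 0.700, 0.598 and 0.696 in control. Each value of the libraries labelled knockout lay above all of control by a small margin, and the log2 fold change of 0.31 ± 0.47 (SE) did not pass (edgeR adjusted p = 0.63).

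Pycard, the gene of the adaptor ASC, held 4, 12 and 0 counts in the libraries labelled knockout, against 2, 0 and 0 counts in the control libraries. These values are at or near the floor of 3 counts, and no fold change is given. RAW264.7 cells are known to lack ASC. Even these counts are uncertain, because Gm45205, on the opposite strand, overlaps 485 bases of Pycard exons and held 23, 5 and 24 counts against 14, 3 and 8 in control.

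Il1rap, the gene of the accessory chain shared by the receptors for IL-1 and IL-33, measured 1.26, 1.11 and 0.618 CPM in the libraries labelled knockout, against 1.13, 2.87 and 1.48 CPM in the control libraries. The groups overlapped, and control replicate 2 stood above the rest. The log2 fold change of -0.87 ± 0.44 (SE) did not pass (edgeR adjusted p = 0.137) and was -0.41 without control replicate 2 and -0.35 with the length offset.

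Levels of different genes were set side by side as CPM per kb of exon. In the libraries labelled knockout the order began with Casp1 at 7.73 ± 0.213 and Il18 at 7.70 ± 1.49, which did not differ beyond their spread, then Gsdmd at 5.92 ± 0.212 and Il1rn at 2.82 ± 0.494 (SD, n = 3). Nlrp3 at 0.203, Il1rap at 0.0875, Il1b at 0.0341, Pycard at 0.0161 and Il18bp at 0.00434 CPM per kb followed, with Il1a at 0, and from Il1rap to Il1a each overlapped the next. In control Il1rn led at 346 ± 109, ahead of Il18 at 13.9 ± 2.36 and Casp1 at 12.0 ± 0.626, whose ranges overlapped, and of Gsdmd at 8.16 ± 0.519 CPM per kb (SD, n = 3). Il1b at 4.79 ± 0.302 and Il1a at 4.59 ± 0.359 CPM per kb overlapped in control. Il18bp at 0.242, Nlrp3 at 0.164, Il1rap at 0.161 and Pycard at 0.00227 CPM per kb closed the order, with the range of Il1rap overlapping those of Il18bp and Nlrp3.

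The other genes of the pathway came from 5 lists of 55 genes, of which 37 were tested, 16 lower, 3 higher and 18 not called. The share called was 51.4%, against 43.2% of all genes tested. By list it was 45.5% for sensors and regulators, 33.3% for caspases, gasdermins and release, and 50% for IL-1 receptor signalling. The 2 tested ligands and the 3 tested receptors and coreceptors were all called. Of the 16 lower, Il1f9 and Il1f6 passed the filter on low counts through control alone and had to differ. Another 17 had 0 counts in every library, where the floor of 3 counts was 0.0336 to 0.0394 CPM in the libraries labelled knockout and 0.0389 to 0.0513 CPM in control. The median log2 fold change of those tested was -0.54, against -0.03 for all genes tested. With library totals alone 10 were lower and 5 higher.

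**Figure D4:**
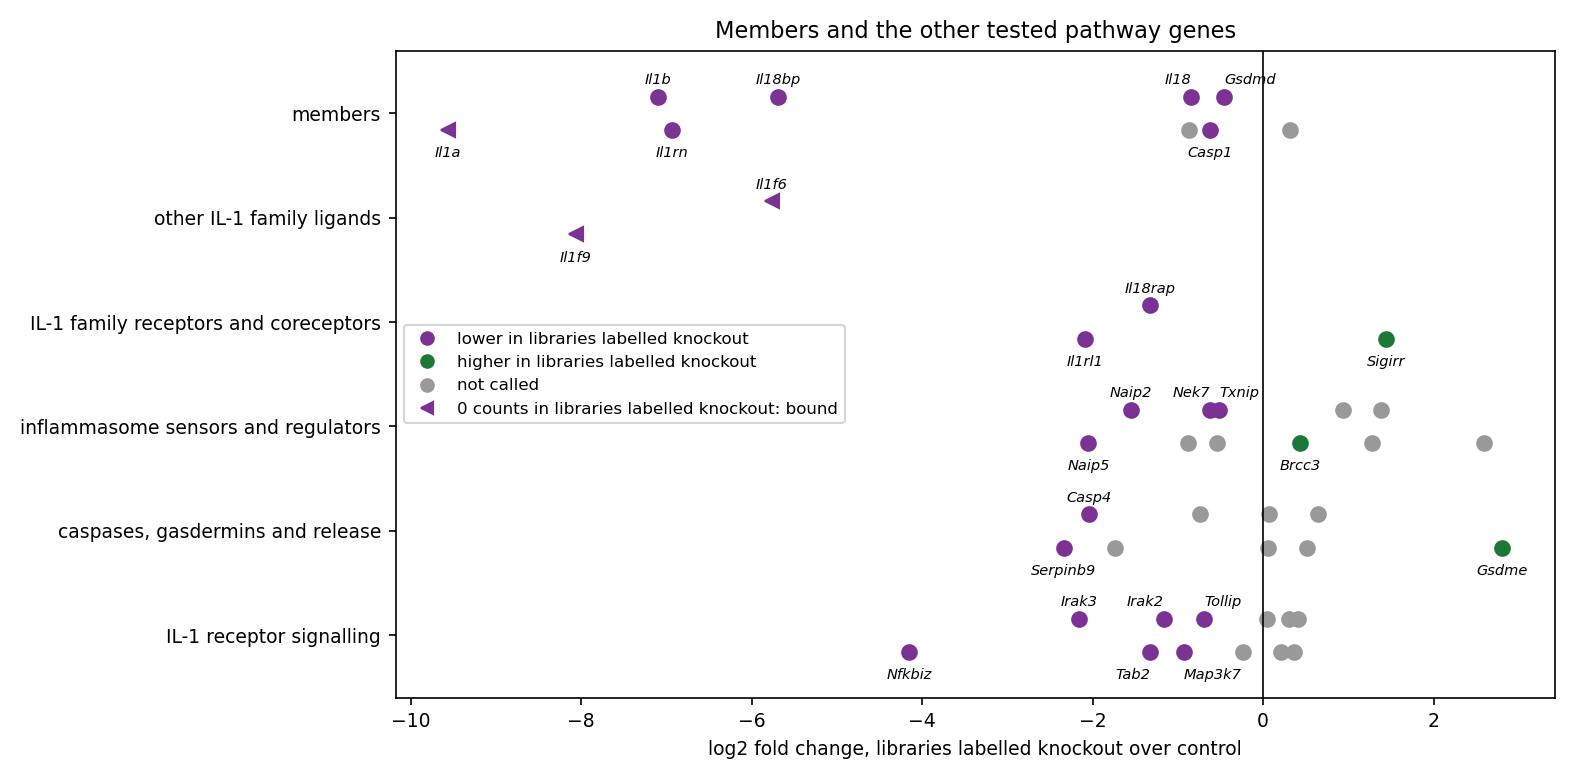
Log2 fold change, libraries labelled knockout over control, of the 9 tested members and the 37 tested genes of 5 further lists, 1 point per gene, coloured by the edgeR call, with genes at 0 counts in the libraries labelled knockout drawn as triangles at their bound. Il1a and Il1f9 lie furthest to the left, at bounds of 754-fold and 267-fold lower. Il1f6, at a bound of 54.3-fold lower, lies to the right of Il1b at -7.10 and Il1rn at -6.94. Gsdme at 2.80 is the largest called rise among the genes drawn.

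Of the 6 other ligands of the family, Il1f9 and Il1f6 had counts, in control only, and they are given as a description. Il1f9, the gene of the cytokine IL-36 gamma, had 0 counts in each library labelled knockout, against 232, 100 and 298 in the control libraries, and was at least 267-fold lower. Il1f6, the gene of IL-36 alpha, had 0 counts in each library labelled knockout, against 75, 9 and 44 in the control libraries, and was at least 54.3-fold lower. Both lie before Il1rn on chromosome 2, Il1f9 at 24186476 to 24193568 and Il1f6 at 24215418 to 24225702. Il33, Il1f5, Il1f8 and Il1f10 had 0 counts throughout.

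Of the 9 receptor and coreceptor genes, 3 were tested, with 2 lower and 1 higher. Il1r1, the signalling receptor of IL-1, and its decoy Il1r2 had 0 counts in all 6 libraries, as did Il18r1 and the IL-36 receptor gene Il1rl2. Il1rl1, the IL-33 receptor ST2, measured 1.43, 0.649 and 0.763 CPM in the libraries labelled knockout and 4.04, 4.99 and 3.05 CPM in control, a log2 fold change of -2.09 ± 0.36 (SE, edgeR adjusted p = 0.000557). Il18rap, the accessory chain of the IL-18 receptor, was at 2.42, 1.69 and 0.697 CPM against 4.67, 5.13 and 2.31 CPM in control (log2 fold change -1.33, edgeR adjusted p = 0.0263). Its groups overlapped, and leaving out control replicate 1, control replicate 2, or replicate 2 or 3 of the libraries labelled knockout raised the adjusted p to between 0.0655 and 0.0945. The call was also lost with library totals alone (0.094) and the length offset (0.0621). Sigirr, an inhibitory receptor of the family, rose to 2.18, 2.54 and 3.13 CPM in the libraries labelled knockout, against 1.23, 0.803 and 0.848 CPM in control (log2 fold change 1.44 ± 0.33, SE; edgeR adjusted p = 0.00405).

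Of 16 inflammasome sensors and regulators, 11 were tested, with 4 lower, 1 higher and 6 not called. The number lower was 0 with library totals alone, and 1 without control replicate 2, without control replicate 3 or without replicate 3 of both groups. It was 2 with the length offset, with every gene that had a count, and without replicate 2 or 3 of the libraries labelled knockout. Brcc3, whose product removes ubiquitin from NLRP3, rose to 58.7 ± 3.16 CPM in the libraries labelled knockout, against 43.6 ± 2.83 CPM in control (SD, n = 3 each; edgeR adjusted p = 0.00531). Naip2, a receptor for bacterial secretion proteins, was at 0.669 ± 0.358 CPM against 1.98 ± 0.568 CPM in control (edgeR adjusted p = 0.0208), a call lost with library totals alone (0.0643), without control replicate 3 (0.0836) and without replicate 3 of both groups (0.126). Nek7, a kinase that binds NLRP3, was at 3.42 ± 0.112 CPM against 5.28 ± 0.618 CPM in control, and Txnip, a thioredoxin-binding protein, at 54.2 ± 11.3 CPM against 77.5 ± 16.5 CPM. Their edgeR adjusted p-values were 0.0289 and 0.0342, and both calls were lost with library totals alone, at 0.144 and 0.31. The call of Nek7 was also lost without control replicate 2 or 3, without replicate 1 or 2 of the libraries labelled knockout (0.0653 to 0.0803), without replicate 3 of both groups (0.0833) and with the length offset (0.282). That of Txnip was also lost without control replicate 1 or 2 and without replicate 2 or 3 of the libraries labelled knockout (0.0607 to 0.13), and with every gene that had a count (0.0532). The fourth gene lower was Naip5, a receptor for bacterial flagellin, at 0.292, 0.145 and 0.145 CPM in the libraries labelled knockout against 0.272, 1.09 and 1.07 CPM in control (edgeR adjusted p = 0.0448). Its groups overlapped, and its counts are uncertain, because the near-identical Naip6 held up to 200% of its count in a library. The sensors Nlrp1a, Nlrp6, Nlrp12 and Mefv had 0 counts throughout.

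Of 12 caspase, gasdermin and release genes, 9 were tested, with 2 lower, 1 higher and 6 not called. Gsdme, a gasdermin cleaved by caspase-3, rose to 62.2, 63.4 and 52.1 CPM in the libraries labelled knockout, against 8.33, 8.66 and 8.48 CPM in control. The groups were far apart, with a log2 fold change of 2.80 ± 0.12 (SE, edgeR adjusted p = 1.35e-08), while Gsdmd fell. Casp4, which encodes the mouse caspase-11 that senses intracellular lipopolysaccharide, fell to 2.73, 2.94 and 3.09 CPM, against 14.2, 10.9 and 11.0 CPM in control (log2 fold change -2.04 ± 0.18, SE; edgeR adjusted p = 3.25e-06). Serpinb9, a granzyme B inhibitor, fell to 1.73, 1.73 and 1.33 CPM, against 7.50, 8.08 and 8.72 CPM in control (log2 fold change -2.34 ± 0.22, SE; edgeR adjusted p = 4.11e-06). Casp4 lies next to Casp1 on chromosome 9, at 5308828 to 5336783 beside 5298517 to 5307265.

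All 12 genes of IL-1 receptor signalling were tested, with 6 lower, 0 higher and 6 not called. The share called was 50%, against 43.2% of all genes tested. Nfkbiz, the gene of an NF-kB cofactor induced by IL-1 and Toll-like receptors, fell to 2.11, 1.79 and 1.74 CPM in the libraries labelled knockout, against 35.3, 32.5 and 32.7 CPM in control (log2 fold change -4.16 ± 0.15, SE; edgeR adjusted p = 2.89e-09). Irak3, the kinase-like brake on this pathway, had a log2 fold change of -2.16 ± 0.44 (SE, edgeR adjusted p = 0.00191), and its exons overlap 192 bases of the more abundant Tmbim4 on the opposite strand. Irak2, a kinase of the receptor complex, was at -1.17 and Tab2, an adaptor of the kinase TAK1, at -1.32 on the log2 scale (edgeR adjusted p = 0.00192 and 0.00059). At an unadjusted p of 0.05 1 gene was higher. DESeq2 called 0 higher, and limma-voom, library totals alone and the length offset each called 1.

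The genes most like Il1b over the 6 libraries, by Pearson correlation of log2 CPM among 3711 genes with an average log2 CPM of at least 3, were Brwd1 (r = 0.998), Itpr3 (0.997), Ahcyl1 (0.996), Mrpl52 (0.995) and Dgkd (0.993). Each was lower in the libraries labelled knockout, with log2 fold changes of -2.39 to -0.94, a direction fixed by picking genes like Il1b. Those most like Il18 were Limd1 (r = 0.995), Dnajc10 (0.993), Med15 (0.987), Ankfy1 (0.986) and Ankhd1 (0.984). The 6 points fall into 2 groups, so these values describe mostly the gap between the groups, with the order of libraries inside each. For Il1b the order inside the libraries labelled knockout rests on 16 counts in replicate 1, with 0 in replicates 2 and 3.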

How the data were processed

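RNA of 6 RAW264.7 samples was sequenced, and the authors deposited 1 table of whole-number counts per gene, without normalization and with 1 column per library. Reads were aligned to the GRCm38 build, according to the submitters' processing notes. Not given in the sources used here are the aligner, the counter, its strand setting and how reads with several matches were treated. Members and lists were chosen with earlier results of these data known.

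Counts were tested with edgeR 4.0.16 in R 4.3.3 (TMM, filterByExpr with its minimum count of 10, robust quasi-likelihood fit, Benjamini-Hochberg at 0.05 over 12930 genes), after the procedure had been tested on simulated data. The common biological coefficient of variation was 0.32. SE is the log2 fold change over the square root of F. Alternatives used DESeq2 1.42.0, limma 3.58.1, other scalings and filters, a replicate block, an offset for exon length, and left-out libraries. Named genes were Rhoa, all members, up to 4 called genes per list by smallest p, and the 5 genes most like Il1b and Il18. Copies were sought with blastn 2.17.0 at 95% identity over 200 bp. None of the 9 members tested, nor the other called genes described from the lists except Naip5, had a copy with 10% of its count. Among members, Pycard did, in Gm45205.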

Additional observations from a re-analysis of the deposited data

How the results depend on the processing

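The number of members lower was 6 or 7 and the number higher 0 under all 17 alternatives. It was 6 with library totals alone, where Gsdmd lost its call, and with a filter of 50 counts in 3 libraries, where Il18bp was not tested. It stayed at 7 without replicate 3 of both groups, an alternative chosen after seeing the data. For the other pathway genes, library totals alone gave 10 lower and 5 higher and limma-voom gave 5 higher, against 16 and 3. The mean difference for Il1a over Il1rn was -1.64 with 2 counts added, against -3.63 with 0.5, since the libraries labelled knockout were at 0. Same-numbered samples of the 2 groups did not deviate together (correlations of -0.006, 0.028 and 0.014), so the numbers were not taken as pairs. With the replicate block 5372 genes were called, against 5592, and 7 members were lower. Among the pathway genes 14 were lower and 4 higher with the block, 2 of the sensors and regulators lower, and the adjusted p of Nek7 was 0.0511 (0.329 with the length offset added). That of Naip2 was 0.0552 with both. Depth limits Il1a, Il1b, Il18bp and Pycard, which were at or near 0 in the libraries labelled knockout.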
